A study of Mus musculus with 2 samples.

Results

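The Grem1 Inhba tumour cells were pancreatic tumour cells that carried at least 5 transcripts, summed, of Grem1, Inhba and Igfbp3. Transcripts were counted as unique molecular identifiers (UMIs), each of which stands for 1 captured RNA molecule. There were 2224 of them among 7973 gated tumour cells and 22472 kept cells, 1034 of them control and 1190 knockout cells. The tumour gate asked for at least 10 summed UMIs of Krt8, Krt18, Krt19 and Cdkn2a, for no UMI of the leukocyte gene Ptprc or the fibroblast gene Pdgfra, and for under 50 summed UMIs of the acinar genes Ctrb1, Prss2, Try4 and Clps. Cells with 5 or more summed UMIs of the division genes Mki67 and Top2a, called dividing here, were left out. So were cells with 10 or more UMIs of the intestinal genes Lgals4, Rbp2, Spink4 and Dmbt1 or of the gastric mucin genes Muc5ac and Muc5b. The remaining 5749 gated tumour cells, 3778 control and 1971 knockout, are called the other gated tumour cells here. Because the 3 genes chose the cells, their own values are a description.

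KPC mouse pancreatic cancer cells had been implanted into the pancreas, and tumours were collected 21 days later for droplet single-cell RNA sequencing with the 10x 3' v3.1 kit. The control hosts were Porcnfl/fl littermates without Cre, labelled Porcn WT, and the knockout hosts were Csf1r-Cre;Porcnfl/fl mice, labelled Porcn KO. Porcn encodes the acyltransferase that Wnt proteins need for secretion. The Csf1r promoter, active in macrophages and related myeloid cells, drives the Cre, so the deletion was aimed at host myeloid cells. Which host cells it reached was not tested. Both sets of hosts received KPC cells. Tumours of 5 mice were pooled into 1 library per genotype, so genotype, pool and library cannot be told apart, no test between genotypes was possible, and no p-value is given. Intervals in brackets are exact 95% intervals for counting error alone and hold nothing of the spread between mice.

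Gremlin 1, the product of Grem1, is a secreted antagonist that binds bone morphogenetic proteins (BMPs) and keeps them from their receptors. Inhba encodes the beta A subunit whose dimer is activin A, a ligand of the TGF-beta family that signals through SMAD2 and SMAD3. Igfbp3 encodes a secreted protein that binds insulin-like growth factors. Hmga2 encodes a chromatin protein of embryonic and cancer cells that is kept low by the let-7 microRNAs, and Tnnt2 encodes troponin T of heart muscle.

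Per GENCODE M21 on GRCm38, Grem1 lies on the minus strand at chr2:113746164-113758646, Inhba on the plus strand at chr13:16011851-16031621 and Igfbp3 on the minus strand at chr11:7206086-7213923. Hmga2 lies on the minus strand at chr10:120361275-120476469 and Tnnt2 on the plus strand at chr1:135836354-135852260. Porcn itself was at 7.66 UMIs per 1000000 UMIs of the cell set (CPM) in the control Grem1 Inhba tumour cells [6.54 to 8.92] and 5.55 CPM in the knockout ones [4.66 to 6.57]. In Csf1r-positive leukocytes, the cells the Cre is meant for, it was found in 5 of 230 control cells and 3 of 401 knockout cells. A 3' tag does not show whether an upstream exon was deleted, so these counts check no label.

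Promoter sequence was available for 15 of 20 genes: the 3 genes of the rule, Hmga2, Tnnt2 and the 15 genes furthest above the other gated tumour cells. The 300-base windows ran from 250 bases before to 50 bases after each start, from RefSeq on GRCm38.p6. The 4 excerpts below were chosen because they hold a searched motif in a gene the values turn on. Capitals mark the motif on either strand, and each sequence runs 5′ to 3′ on the gene's strand. Igfbp3 and Tnnt2 hold an E-box, the motif that SNAI and ZEB proteins read. Tnnt2 also holds a TEAD motif, and Il11 and Havcr2 hold an AP-1 motif.
Igfbp3, chr11:7214043-7214142, minus strand: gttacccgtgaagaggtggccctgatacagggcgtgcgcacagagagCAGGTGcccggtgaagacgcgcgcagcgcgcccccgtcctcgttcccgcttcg
Tnnt2, chr1:135836226-135836325, plus strand: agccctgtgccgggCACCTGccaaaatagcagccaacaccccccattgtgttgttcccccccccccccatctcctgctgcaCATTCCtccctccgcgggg
Il11, chr7:4778187-4778286, minus strand: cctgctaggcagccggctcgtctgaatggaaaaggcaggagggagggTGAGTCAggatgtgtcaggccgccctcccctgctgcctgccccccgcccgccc
Havcr2, chr11:46454684-46454783, plus strand: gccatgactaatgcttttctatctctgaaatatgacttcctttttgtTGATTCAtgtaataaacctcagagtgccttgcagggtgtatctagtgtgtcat

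The E-box CACCTG was in the windows of 4 of the 15 genes (Igfbp3, Tnnt2, Pgf and Ptgs2), and in 20.2% of all 32851 windows of that length. The TEAD motif GGAATG was in 3 of the 15 (Tnnt2, Abcb1a and Smtn), against 14.7% of all windows. The AP-1 motif TGANTCA was also in 3 (Il11, Prl2c3 and Havcr2), against 7.81% of all. The SMAD element GTCTAGAC and the CAGA box AGCCAGACA were in none of the 15, and in 0.213% and 0.387% of all windows. A gene counted when any of its windows held the motif, and some genes, such as Tnnt2 and Il11, had several windows. The share of all windows is counted per window, so the gene counts and these shares are not like for like. Both strands were searched, the motifs share no letters within these windows, and a match is a description of the sequence and not a site in use.

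The cells made up a larger share of gated tumour cells in the knockout library. Of 4812 gated control cells 21.5% belonged to them [20.3 to 22.7], and of 3161 gated knockout cells 37.7% did [35.95 to 39.4], so the knockout share was 1.75 times the control share [1.61 to 1.91]. Of all kept cells they were 8.87% and 11.01%, which is 1.24 times [1.14 to 1.35]. The share depended on depth, since a deeper cell reaches 5 UMIs more easily. It was 3.16% of control and 3.17% of knockout cells under 5000 UMIs, 22.5% and 36.4% between 10000 and 20000 UMIs, and 74.2% and 85.7% at 40000 UMIs or more. The knockout share was the higher in every depth band from 5000 UMIs upward. At 40000 UMIs or more the ratio was 1.16 [0.79 to 1.68], a difference within counting error. The lowest band gave the same share within counting error. After each cell was thinned to 10000 UMIs, which left out 1701 shallower control and 711 shallower knockout cells, 21.9% of 3111 control cells and 34% of 2450 knockout cells still had 5 UMIs, 1.55 times the control share [1.40 to 1.72]. Median depth of all gated tumour cells was 12351.5 UMIs in the control and 14541 in the knockout library.

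**Figure D1:**
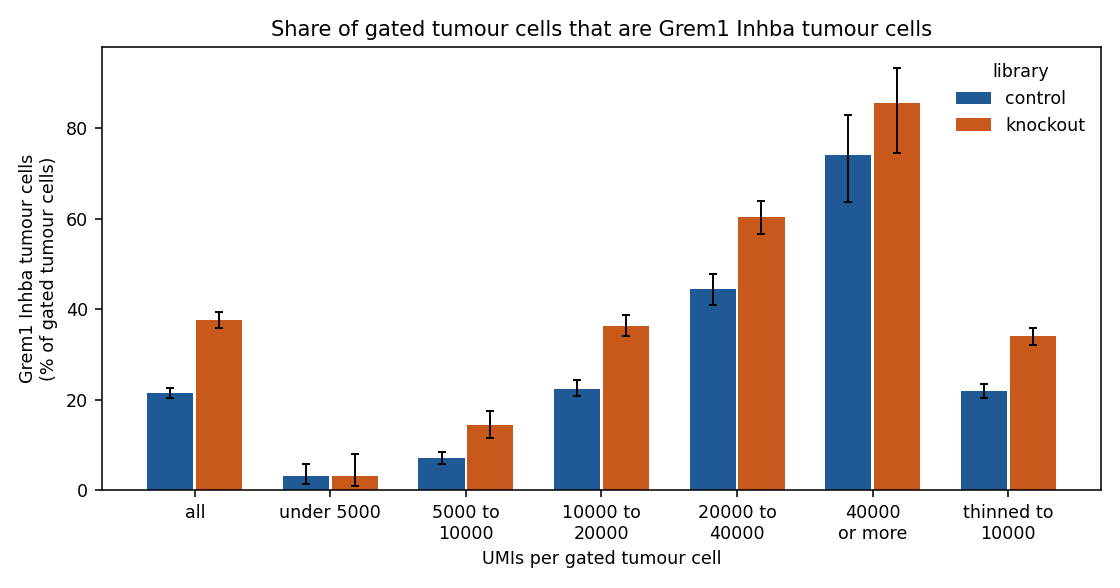
Percent of gated tumour cells (y axis) with at least 5 summed UMIs of Grem1, Inhba and Igfbp3, for all cells, by band of UMIs per cell, and after thinning to 10000 UMIs (x axis), in the control and the knockout library; error bars are exact 95% intervals of counting error. Over the bands both shares climb with depth, and the knockout share lies above the control share in each band from 5000 UMIs on.

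The 3 genes of the rule were far apart between the chosen cells and the rest, as the choice makes them. Grem1 was at 208 CPM in the control Grem1 Inhba tumour cells [202 to 214] against 13.9 CPM in the other gated tumour cells, and at 249.6 CPM [243 to 256] against 24.7 CPM in the knockout library. Inhba was at 544 CPM [534 to 554] against 18.2 CPM in the control library and 494 CPM [485 to 503] against 19.7 CPM in the knockout. Igfbp3 was at 393 CPM [385 to 402] against 22.9 CPM, and at 411 CPM against 23.6 CPM. Within the chosen cells the knockout level was 1.2 times the control level for Grem1 and 0.909 times for Inhba.

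A floor for these genes was taken from cells gated as T cells, and what part of it was free RNA was not tested. T cells, gated on Cd3 genes and not expected to make them, showed Grem1 in 1.21% of 165 control and 1.12% of 1604 knockout cells, at median depths of 3546 and 3696 UMIs. Inhba was in 4.85% and 2.18% of T-gated cells, and Igfbp3 in 1.82% and 2.06%. In CPM, T-gated cells had 3.55 and 2.5 of Grem1, 22.5 and 7.24 of Inhba, and 5.92 and 7.11 of Igfbp3. The Inhba level of control T-gated cells [13.5 to 35.1] was thus not below that of the other gated tumour cells, at 18.2 CPM. Neutrophil markers summed to 17232 CPM in the control T-gated cells, found in 12.1% of them, and to 529 CPM in the knockout ones, found in 3.12%. The part of such mixed droplets in the floor was not tested. Among the Grem1 Inhba tumour cells, Grem1 was in 65.9% and 77.4%, Inhba in 75.3% and 81.9%, and Igfbp3 in 82.4% and 85.9% of cells, control and knockout. Fibroblast-gated cells, 412 and 571 of them, were at 3.51 and 2.44 CPM of Grem1. Their Inhba was 47.9 and 12.7 CPM and their Igfbp3 123 and 108 CPM. Dividing tumour cells were in between, with Grem1 at 39.5 and 41.9 CPM and Inhba at 133 and 170 CPM.

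**Figure D2:**
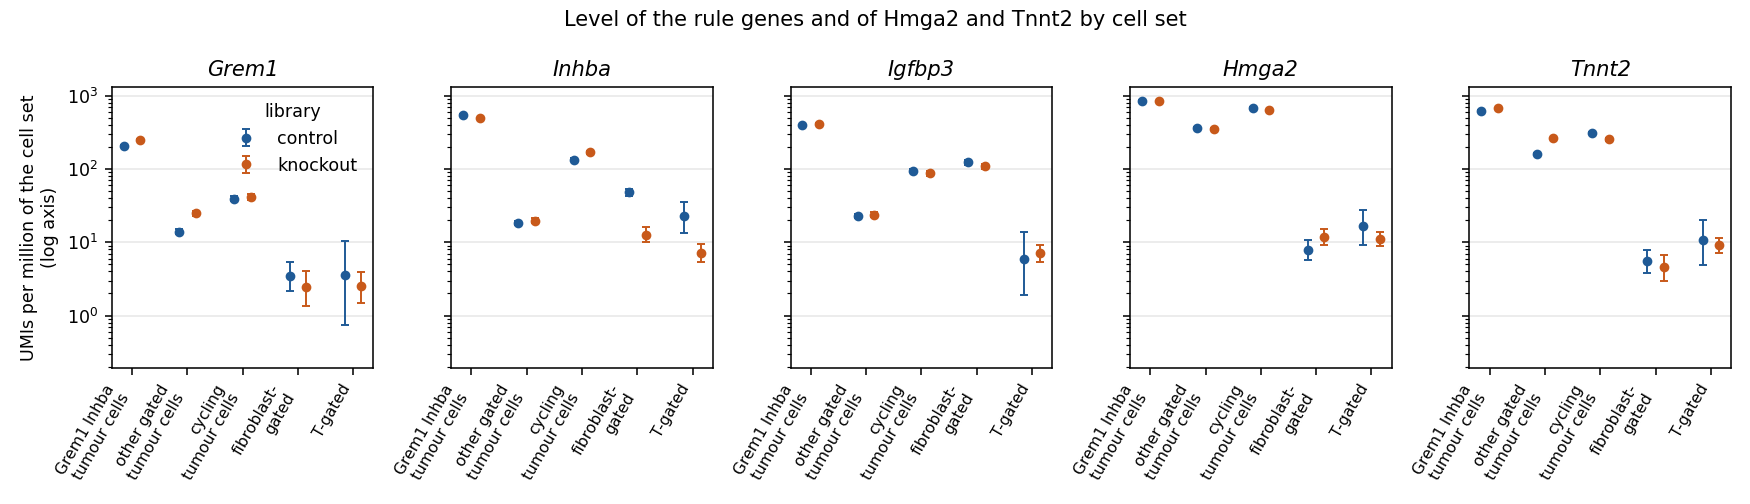
Level in CPM on a log axis of Grem1, Inhba, Igfbp3, Hmga2 and Tnnt2 in 5 cell sets of each library (the dividing cells are marked cycling); bars are exact Poisson 95% intervals. All 5 genes are highest in the Grem1 Inhba tumour cells, and Hmga2 and Tnnt2, which the rule did not use, are lower but well above the T-gated cells in the other gated and the dividing tumour cells.

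Hmga2 and Tnnt2 name the cells but were not part of the rule. Hmga2 was at 858 CPM in the control Grem1 Inhba tumour cells and 363 CPM in the other gated tumour cells, 2.36-fold [2.31 to 2.41], and at 832 CPM and 355 CPM in the knockout library, 2.34-fold. Tnnt2 was at 624 CPM against 161 CPM in the control library, 3.88-fold, and at 673 CPM against 261 CPM in the knockout, 2.58-fold. Hmga2 was found in 95.9% and 96.7% of the chosen cells and Tnnt2 in 92.7% and 95.04%, compared with 6.06% and 3.80% of T-gated cells for Hmga2 and 4.24% and 2.37% for Tnnt2. At the edge of the rule the values were close: Hmga2 was at 591 CPM in the 140 control cells with a sum of 4 and 665 CPM in the 100 with a sum of 5, and at 522 CPM in 116 and 606 CPM in 99 knockout cells. Tnnt2 went from 362 to 405 CPM and from 416 to 477 CPM over the same step.

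Pooled levels changed step by step over bins of the rule sum. Such pooled values cannot tell a gradient across cells from a changing mix of high and low cells. From control cells with none of the 3 transcripts to those with 10 or more, Hmga2 went from 290 over 409, 571 and 618 to 963 CPM (bins of 0, 1 to 2, 3 to 4, 5 to 9, and 10 or more UMIs). Tnnt2 went from 104 to 710 CPM over the same bins in the control library and from 175 to 739 CPM in the knockout. Jag1, a ligand of Notch receptors, went from 13.7 to 186 CPM and from 14.6 to 165 CPM. The gene for the cyclin-dependent kinase inhibitor p21, Cdkn1a, went from 13.1 to 176 CPM and from 15.2 to 102 CPM. Downward, Fxyd3, a regulator of the sodium pump in epithelia, went from 316 to 28.2 CPM and from 343 to 31.9 CPM, and the E-cadherin gene Cdh1 from 329 to 109 CPM and from 301 to 86.1 CPM. Each of these 6 genes moved in 1 direction through all 5 bins in both libraries. The median depth of the bins also grew, from 9980 to 19257 UMIs in the control and from 10975 to 19960 UMIs in the knockout library. The part of depth in these steps was not tested.

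**Figure D3:**
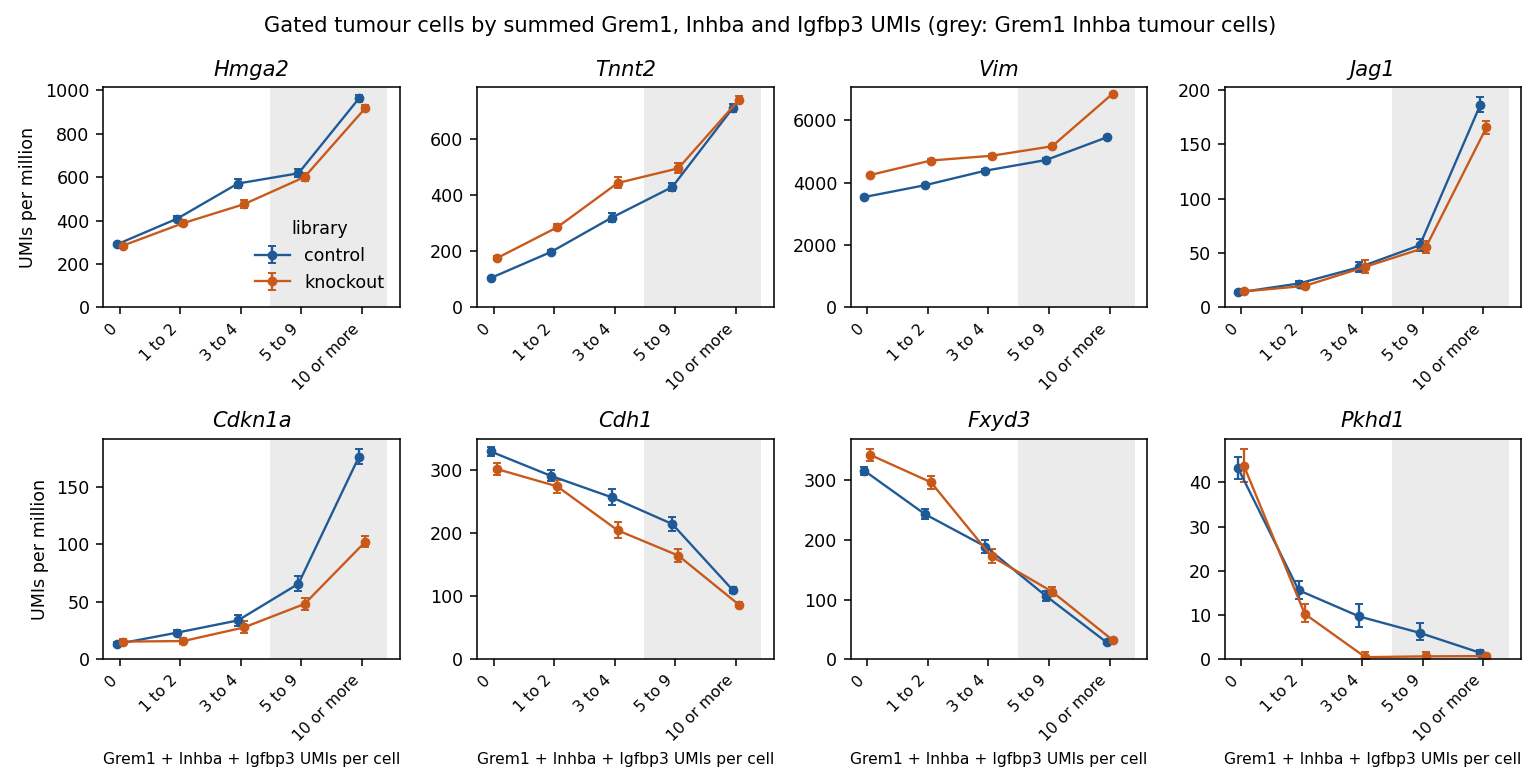
Level in CPM (y axis, linear and starting at 0) of 8 genes outside the rule, by the summed UMIs of Grem1, Inhba and Igfbp3 per cell (x axis, 5 bins), in each library; bars are exact Poisson 95% intervals and grey marks the bins of Grem1 Inhba tumour cells. Hmga2, Tnnt2, Vim, Jag1 and Cdkn1a climb over the bins, Cdh1 and Fxyd3 decline, and Pkhd1 is low from the third bin on in the knockout library.

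Most of the cells carried more than 1 of the 3 transcripts. All 3 were found in 39.8% of control and 55.5% of knockout Grem1 Inhba tumour cells, and at least 2 in 83.9% and 89.7%. Igfbp3 alone was found in 10.6% and 4.202%. The gene with most UMIs in a cell was Igfbp3 in 458 control and 473 knockout cells, Inhba in 337 and 403, and Grem1 in 204 and 261, with ties in 35 and 53. In 128 control and 151 knockout cells no single gene reached 5 UMIs, so they were chosen by the sum alone. Among all gated tumour cells thinned to 10000 UMIs, Inhba was found in 57.0% of control cells with Grem1 and 21.6% of those without, and in 59.3% and 28.4% in the knockout library. Tnnt2, which the rule left out, was found in 85.0% of control cells with Inhba and 48.7% of those without, and in 91.6% and 63.9% of knockout cells.

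Cells led by Grem1 and cells led by Inhba differed in other genes. Penk, which encodes the opioid precursor proenkephalin, was at 75.0 CPM in control cells led by Grem1 and 7.96 CPM in those led by Inhba or Igfbp3, and at 32.1 and 7.50 CPM in the knockout library. Penk came from few cells: 5 held 46.6% of its UMIs in all control and 61.2% in all knockout Grem1 Inhba tumour cells. The Grem1-led cells were also higher in the chemokine gene Cxcl15 (67.2 against 21.4 CPM, and 53.2 against 9.98 CPM) and in Nrp1, a co-receptor of VEGF and semaphorins (113 against 42.7 CPM, and 79.4 against 22.0 CPM). They were lower in Dynap, at 18.1 against 88.2 CPM and 24.9 against 81.5 CPM, and in Abcb1a, Ptgs2, Angptl4 and Il11. Inhba-led cells were the higher in Il11, a cytokine of the interleukin 6 family, at 53.9 against 4.69 CPM in the control and 76.9 against 4.55 CPM in the knockout library. They were likewise higher in the cyclooxygenase gene Ptgs2 (54.5 against 10.97 CPM, and 43.8 against 13.7 CPM) and in Pthlh, which encodes parathyroid hormone-related protein (110 against 35.0 CPM, and 62.1 against 16.1 CPM). For Igfbp3-led cells no gene of at least 20 CPM reached a log2 difference of 1 upward in both libraries, and the highest, Paox, a polyamine oxidase gene, was at 23.8 against 16.2 CPM and 21.6 against 15.4 CPM.

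When gated tumour cells of each library were clustered without the rule and gate genes, the Grem1 Inhba tumour cells did not form a cluster of their own. Of 17 control clusters, 3 were made up of more than 50% of these cells and together held 69.4% of them. Of 13 knockout clusters, 4 did so and held 74.6%. The highest share of them in any cluster was 69.0% in the control and 89.3% in the knockout library.

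Among 13946 genes with enough UMIs, 373 (2.67%) were at least 2-fold higher in the Grem1 Inhba tumour cells than in the other gated tumour cells in both libraries, and 811 (5.82%) were at least 2-fold lower in both. The log2 ratio of the median gene was -0.15 in the control and -0.26 in the knockout library. With that shift removed the counts were 496 higher and 566 lower, which takes the higher share of all calls from 31.5% to 46.7%. These fold counts have no test behind them, and they compare cells of 1 library with each other. The chosen cells were deeper, with medians of 18194 UMIs against 11299.5 in the control library and 18647.5 against 12342 in the knockout. Their mitochondrial share was lower, at 1.42% against 2.24% and 0.807% against 1.83%. In cells of 10000 to 40000 UMIs 340 genes were higher and 656 lower. Of the 373 higher genes 85.0% were called again there, and of the 811 lower genes 74.6%. How much of any single fold came from depth or RNA quality was not tested.

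Of the 15 genes furthest above the other gated tumour cells, several encode secreted proteins, among them Il11, Pgf and Prl2c3. Il11 was at 22.1 CPM against 1.09 CPM in the control library, 20.4-fold [15.3 to 27.7], and at 31.3 CPM against 1.27 CPM in the knockout, 24.6-fold [17.5 to 35.8]. It came from few cells: it was found in 9.48% and 7.39% of the Grem1 Inhba tumour cells, and the 5 richest cells held 40.2% and 66.2% of its UMIs. Without those 5 cells it was at 13.4 and 10.6 CPM. Il11 was not particular to these cells: the dividing tumour cells, outside both sets, were at 214 CPM in the control library, from 28 of 486 cells. In the knockout library the dividing cells were at 2.01 CPM, from 11 of 349 cells. Pgf, which encodes placental growth factor, a ligand of VEGF receptor 1, was at 48.6 CPM against 4.85 CPM and 45.1 CPM against 4.60 CPM, about even between libraries. Prl2c3, of the prolactin family, was at 82.9 CPM against 6 CPM and 47.9 CPM against 3.29 CPM; its close relative Prl2c2 is nearly identical, so how reads were split between such copies is uncertain.

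Genes of membrane proteins among the 15 included receptors, a transporter and a Notch ligand. Jag1 was at 147 CPM against 19.2 CPM in the control library, 7.65-fold [7.10 to 8.24], and at 136 CPM against 20.4 CPM in the knockout, 6.66-fold [6.08 to 7.30], and was found in 62.6% and 65.2% of the cells. Dynap was at 74.0 CPM against 1.86 CPM, 39.8-fold [32.1 to 49.8], and at 70.1 CPM against 3.55 CPM, 19.7-fold [16.1 to 24.5]. Havcr2, the gene for the receptor TIM-3 best known from T cells and myeloid cells, was at 38.6 CPM against 3.34 CPM and 49.6 CPM against 4.82 CPM, in cells that by the gate carried no Ptprc. Calcrl, part of the receptors for CGRP and adrenomedullin, was at 33.4 CPM against 3.99 CPM and 67.8 CPM against 5.76 CPM. The drug efflux pump gene Abcb1a was at 49.9 CPM against 6 CPM and 49.4 CPM against 7.29 CPM. Fgfr1, a receptor of fibroblast growth factors, was at 53.8 CPM against 7.32 CPM and 24.3 CPM against 4.71 CPM.

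Inside the cell the same rule named Smtn, which encodes the actin-binding protein smoothelin (60.9 against 9.57 CPM, and 70.3 against 11.5 CPM), and Srgap3 (54.4 against 7.69 CPM, and 55.5 against 9.12 CPM). It also named the heme oxygenase gene Hmox1 (49.4 against 8.53 CPM, and 75.7 against 11.9 CPM), Ptgs2 (26.3 against 4.41 CPM, and 24.7 against 3.96 CPM) and Fam78b (28.1 against 5.46 CPM, and 23.6 against 4.49 CPM). Each of the 15 genes named by this rule was above the other gated tumour cells in both libraries, which the rule requires.

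The genes furthest below the other gated tumour cells included genes of epithelial cilia and ion transport. Pkhd1, which encodes the ciliary protein fibrocystin of bile and pancreatic ducts, was at 2.79 CPM against 30.1 CPM in the control library and 0.653 CPM against 24.0 CPM in the knockout. Fxyd3 was at 51.9 CPM against 277 CPM, 0.187-fold [0.176 to 0.199], and at 53.6 CPM against 297 CPM, 0.181-fold [0.170 to 0.192]. Atp1b1, a sodium pump subunit, was at 19.1 CPM against 99.1 CPM and 9.96 CPM against 82.3 CPM. The chemokine genes Cxcl12 (11.5 against 55.9 CPM, and 7.92 against 38.5 CPM) and Cxcl15 (29.3 against 139.9 CPM, and 17.8 against 104 CPM) were lower too. Selenop, Smim5 and the glucuronosyltransferase gene Ugt2b34 were also on this list.

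Some of these values rested on few cells of the comparison set. Pkhd1 was found in 10.1% of control and 3.602% of knockout other gated tumour cells. The haemoglobin gene Hbb-bs was at 0.232 and 1.22 CPM in the Grem1 Inhba tumour cells and 46.3 and 53.5 CPM in the other gated tumour cells, where it was found in 0.741% and 3.04% of cells. Apoe, the apolipoprotein E gene, was at 6.31 CPM against 42.5 CPM and 9.88 CPM against 57.2 CPM. Once cells with an Epcam UMI, about 1% of the other gated tumour cells, were left out, its log2 ratios were -1.07 and -0.37.

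**Figure D4:**
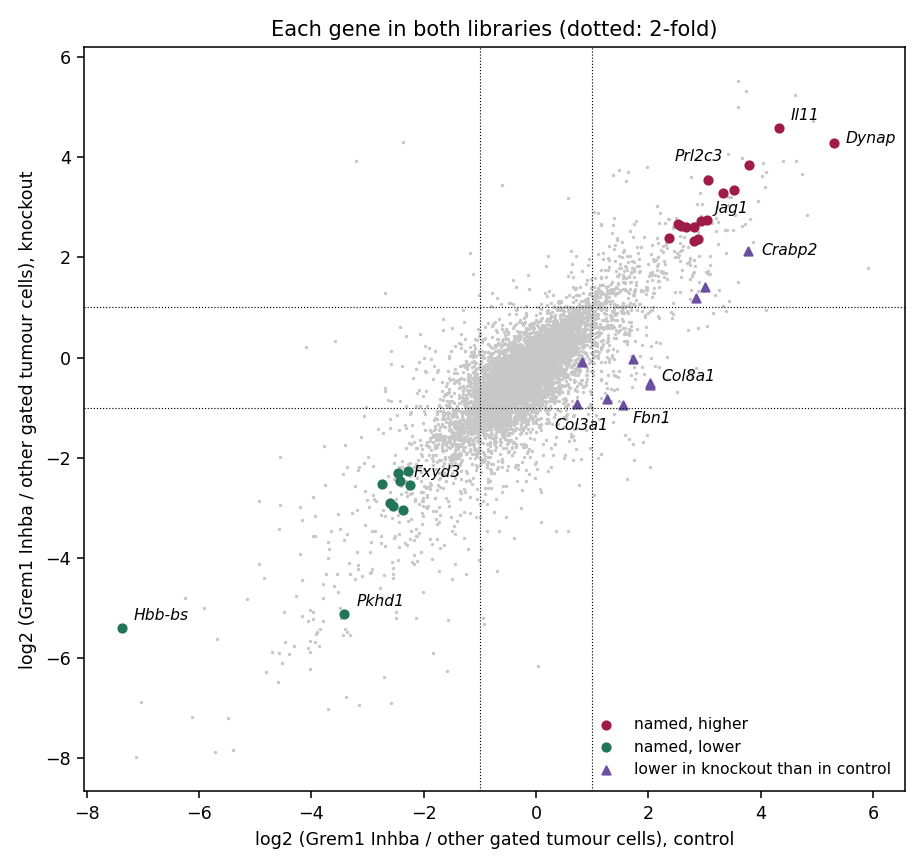
Log2 ratio of each gene in Grem1 Inhba tumour cells over other gated tumour cells, control library on the x axis and knockout library on the y axis; dotted lines mark 2-fold. Circles are the genes furthest higher or lower in both libraries, and triangles are the 10 genes lowest in knockout relative to control Grem1 Inhba tumour cells; 7 of these triangles lie above 0 on the x axis and below 0 on the y axis, Pdzrn3 and Syt8 just below it.

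Gene lists were read against the median of all genes, and a member counted as higher or lower only when it was past 2-fold in both libraries. Most lists other than cell type markers lay above that median in both libraries. Cell cycle genes, for one, were at 0.28 and 0.20 and YAP and TEAD target genes at 0.23 and 0.26. A list median above that of all genes is therefore not particular to a list. In the TGF-beta and activin family, 1 of 13 measured ligand genes was higher and 2 were lower. Of 11 receptor genes 1 was higher, Bmpr1b, a type I BMP receptor, at 4.13 against 1.55 CPM and 2.25 against 0.561 CPM. None of 12 genes of antagonists and latency proteins passed in either direction. Fst, which encodes follistatin, the antagonist of activin, was at 69.0 against 70.6 CPM and 61.6 against 75.3 CPM. Of 12 SMAD genes and regulators, Smad6, an inhibitory SMAD of BMP signalling (7.43 against 17.7 CPM in the control library), and the pseudoreceptor gene Bambi were lower and none was higher.

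Target genes of TGF-beta and activin leaned higher. Of 15 measured, 4 were higher and 1 lower, and their median log2 ratio was 0.53 above that of all genes in the control and 0.56 above in the knockout library. Thbs1, which encodes thrombospondin 1, was at 105 against 24.9 CPM and 30.3 against 9.31 CPM, and Tgfbi at 35.1 against 10.8 CPM and 21.3 against 5.57 CPM. The repressor gene Bhlhe40 (215 against 102 CPM, and 170 against 80.5 CPM) was also among those higher, and Tgm2, a transglutaminase gene, was lower (63.8 against 155 CPM, and 28.5 against 90.8 CPM). Of 8 BMP target genes, Hey1 and Msx1 were higher and Smad6 and Bambi lower. Hey1, also a known target of Notch, was at 2.23 against 0.272 CPM and 2.45 against 0.262 CPM, with few UMIs in the other gated tumour cells. Id3 was at 155 against 77.9 CPM in the control library, and Id1 at 98.5 against 80.5 CPM.

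Epithelial junction genes lay lower. Of 17 measured genes for junction proteins and epithelial splicing factors, 13 were lower and none higher, and the median log2 ratio relative to that of all genes was -1.34 in the control and -2.26 in the knockout library. Cdh1 was at 141 against 307 CPM in the control library and 107 against 274 CPM in the knockout. The desmosome gene Dsp was at 23.9 against 67.5 CPM and 12.6 against 48.8 CPM. Several members were close to absent in both sets, such as Epcam, at 0.186 against 9.72 CPM and 0.0817 against 28.1 CPM, with a UMI in about 1% of the other gated tumour cells. Without cells that had an Epcam UMI, the list's median lay at -0.72 and -0.99 relative to all genes.

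Few genes of the mesenchymal side passed 2-fold, although the list medians, like those of most lists, lay above that of all genes. Relative to all genes, the median was 0.60 and 0.55 for transcription factors of the epithelial to mesenchymal transition and 0.47 and 0.33 for mesenchymal genes, control and knockout. Of 7 such transcription factor genes, 1 was higher, Snai1, at 10.2 against 2.97 CPM and 5.67 against 2.06 CPM, and Zeb1 was at 133 against 132 CPM and 118 against 134 CPM. Of 16 mesenchymal genes, 1 was higher, the integrin gene Itga5 (63.3 against 24.2 CPM, and 44.5 against 21.2 CPM). Vim, which encodes the intermediate filament vimentin, was at 5235 against 3769 CPM and 6407 against 4526 CPM, under 2-fold. None of 12 contractile genes was higher and 1 was lower. Among 17 laminin and integrin genes, Lamb1 (99.7 against 22.1 CPM, and 63.2 against 15.6 CPM) and Itga5 were higher and Lamb2 lower.

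Of 14 genes of the classical pancreatic cancer programme none was higher and 3 were lower, among them Hnf4a and Hnf4g. Hnf4a, a transcription factor of endoderm-derived epithelia, was at 26.5 against 59.4 CPM and 21.3 against 46.3 CPM. The basal-type list was mixed, with 4 of 10 higher (Areg, Krt16, S100a3 and Sox2) and 2 lower (Lgals7 and Ly6d). Areg, which encodes the EGF receptor ligand amphiregulin, was at 106 against 18.5 CPM and 89.0 against 22.0 CPM. Of 11 genes of the EGF receptor family and its ligands, Areg and Btc, which encodes betacellulin (96 against 41.1 CPM, and 132 against 56.0 CPM), were higher and Erbb3 was lower.

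The insulin-like growth factor list, apart from Igfbp3, held 1 higher and 2 lower genes of 10. Igfbp4 was at 961 against 306 CPM in the control library and 477 against 230 CPM in the knockout. Igfbp5 was at 2.27 against 22.4 CPM and 1.14 against 10.1 CPM, found in 3.12% and 1.42% of the other gated tumour cells, and Igfbp6 was lower as well. Of 7 oncofetal genes, 1 was higher, Hmga1, a relative of Hmga2 (82.9 against 25.5 CPM, and 104 against 31.6 CPM). The let-7 target gene Igf2bp1 was at 18.7 against 12.3 CPM in the control library, and the let-7 antagonist Lin28b was near 0 in all sets.

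Hypoxia and glycolysis genes leaned higher. Of 15 measured, 5 were higher and none lower, with a median log2 ratio 0.88 and 1.11 above that of all genes. Slc2a1, the glucose transporter gene, was at 269 against 107 CPM and 318 against 123 CPM. Vegfa was at 222 against 87.2 CPM and 213 against 74.8 CPM, Bnip3, a mitophagy receptor gene, at 499.8 against 194 CPM and 637 against 257 CPM, and Hk2, the hexokinase 2 gene, at 253 against 115 CPM and 221 against 95.97 CPM. Ankrd37 was the fifth. Pgk1 was at 2472 against 1398 CPM and 3280 against 1766 CPM, under 2-fold.

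Jag1 and Tnnt2 led the genes whose level in thinned cells followed the rule sum. Pearson's r across 3111 control and 2450 knockout cells, which share a library and a thinned depth within each, was 0.52 and 0.54 for Jag1, 0.56 and 0.52 for Tnnt2, 0.50 and 0.56 for Ero1l, 0.49 and 0.47 for Plod2, and 0.45 and 0.48 for Higd1a. Ero1l, an oxidase of protein folding, was at 475 against 110 CPM and 552 against 145 CPM, and Plod2, a collagen lysyl hydroxylase gene, at 246 against 77.6 CPM and 249.6 against 87.3 CPM. The most negative were Tspan8, Smpd3, Cd74, Cp and Cystm1. Cd74, the invariant chain of MHC class II, was at 582 against 1552 CPM and 593 against 2088 CPM.

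**Figure D5:**
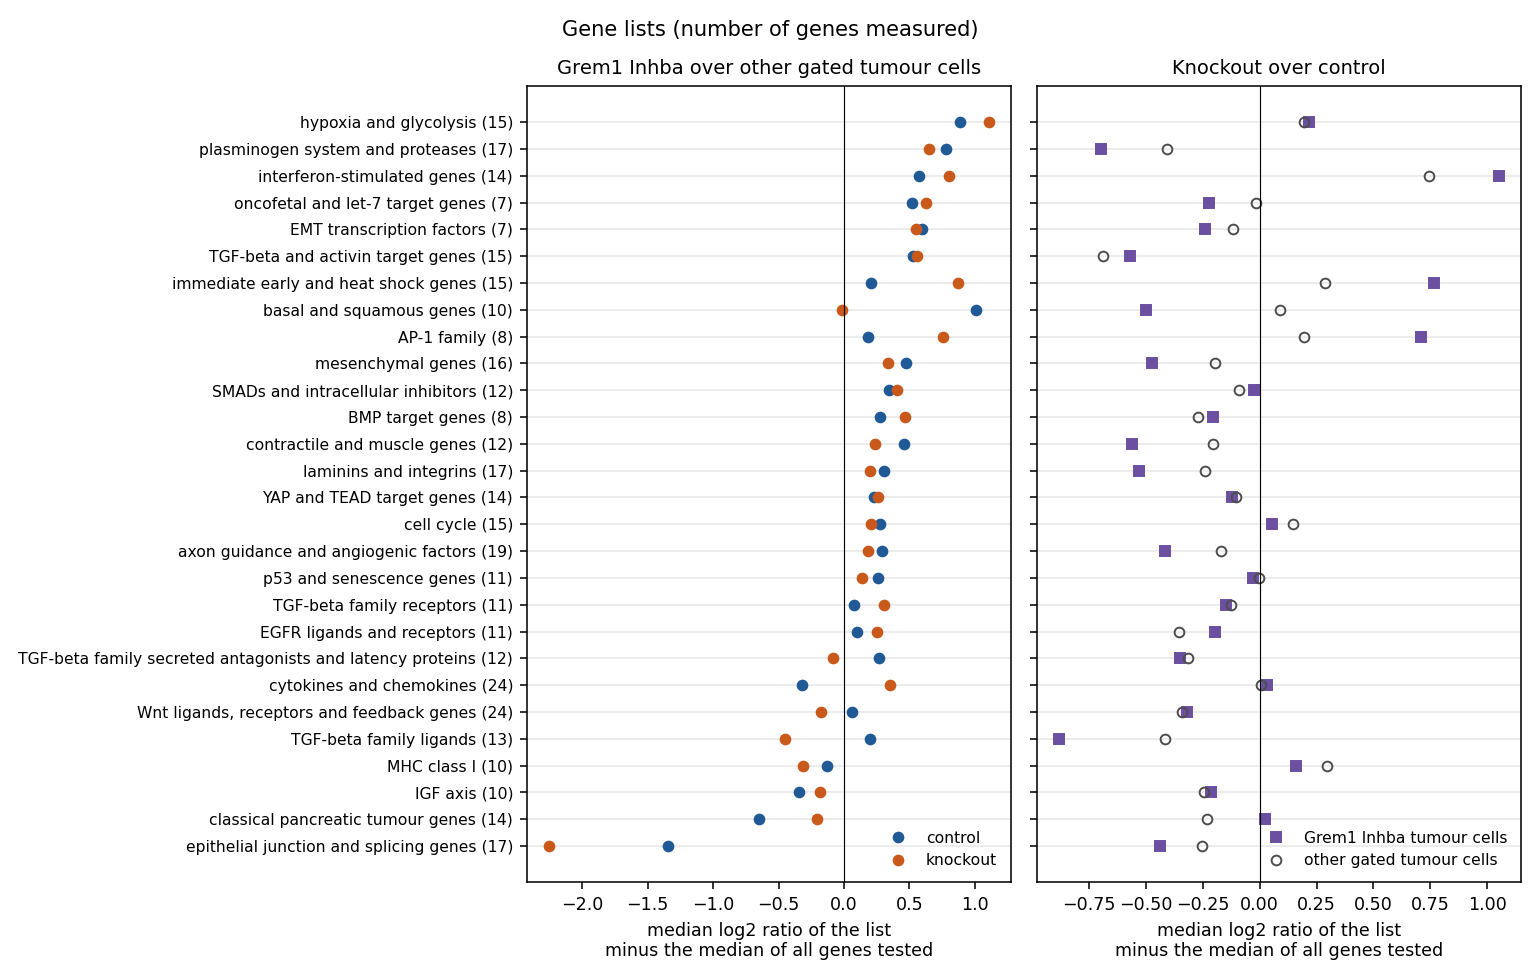
Median log2 ratio of each gene list in Grem1 Inhba tumour cells over other gated tumour cells, minus the median of all genes, in the control and the knockout library (left), and the same for knockout over control in both cell sets (right). Lists of cell type markers are not plotted. On the left, epithelial junction genes lie furthest down among the lists plotted, at -1.34 and -2.26, and hypoxia and glycolysis genes, at 0.88 and 1.11, are among those furthest to the right.

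Several lists of signalling and stress genes held single members past 2-fold. Of 24 cytokine and chemokine genes 6 were higher and 4 lower. The alarmin gene Il33 was at 549.6 against 196 CPM and 360 against 143 CPM, the monocyte chemokine gene Ccl7 at 49.8 against 14.5 CPM and 51.3 against 23.2 CPM, and Csf2, which encodes GM-CSF, at 13.0 against 1.94 CPM and 4.25 against 1.87 CPM. Lif, Tslp and Il11 were the other higher ones, and Cxcl5, Cxcl12, Cxcl15 and Il18 were lower. Of 17 genes of the plasminogen system and proteases, 3 were higher, among them Serpinb2 (11.7 against 0.460 CPM, and 4.21 against 0.0747 CPM) and Mmp10, and Adamts1 was lower. Serpinb2 had few UMIs in the other gated tumour cells. Plaur, the urokinase receptor gene, was at 169 against 87.5 CPM in the control library.

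Of 19 axon guidance and angiogenic genes 5 were higher: Vegfa, Pgf, Angptl4 (71.6 against 11.7 CPM, and 54.5 against 12.3 CPM), Sema3a and Sema7a. Nrp1 was lower, at 56.7 against 163 CPM and 33.6 against 135 CPM. Of 11 p53 target genes, Cdkn1a (142 against 18.8 CPM, and 87.5 against 17.5 CPM) and Sesn2 were higher. None of 15 cell cycle genes passed in either direction, in cells from which dividing ones had been removed. Of 15 immediate early and heat shock genes, Ier3 (434 against 166 CPM, and 382 against 148 CPM) and Dusp1 were higher. No member passed in the YAP and TEAD target list (14 genes), the AP-1 family (8), MHC class I (10) or the interferon-stimulated list (14). For the interferon-stimulated genes the median was still 0.57 and 0.81 above that of all genes.

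Of 24 genes of Wnt ligands, receptors and feedback, 1 was higher (Wnt2, at 1.62 against 0.564 CPM and 0.735 against 0.187 CPM) and 4 were lower. The Wnt2 ratios rest on few UMIs in both cell sets. Wnt4 was at 21.9 against 62.5 CPM and 7.35 against 24.5 CPM. Rnf43, a feedback ubiquitin ligase gene of Wnt receptors, was at 3.62 against 8.24 CPM and 0.817 against 3.102 CPM, and Wnt10a and Sfrp2 were the other lower ones. The chosen and the other gated tumour cells had similar Porcn, at 7.66 and 7.99 CPM in the control library and 5.55 and 5.98 CPM in the knockout.

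Between the genotypes, fewer genes of the Grem1 Inhba tumour cells lay higher than lower in the knockout library. Of 13589 genes, 217 (1.60%) were at least 2-fold higher in knockout than in control cells and 727 (5.35%) at least 2-fold lower. The median gene was at a log2 ratio of -0.15 here and -0.05 in the other gated tumour cells. With that shift removed the counts were 327 higher and 553 lower, and the higher share of calls went from 22.99% to 37.2%. Each value sets 1 pooled library against another.

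Interferon-induced genes were higher in the knockout cells. Of 14 measured interferon-stimulated genes, 5 were at least 2-fold higher and none lower in the knockout Grem1 Inhba tumour cells, with a median 1.05 above that of all genes, against 0.74 above in the other gated tumour cells. Ifit3 was at 486 CPM in the control and 1202 CPM in the knockout cells, 2.47-fold [2.42 to 2.53], and 1.92-fold higher in the other gated tumour cells. Usp18, a negative regulator of interferon signalling, went from 39.2 to 94.2 CPM, and Ifi27l2a from 91.4 to 243 CPM. Ifit3b, Ifi206 and Ifi207 were also among the 10 furthest higher. Ifit3 and Ifit3b, and Ifi206 and Ifi207, are close copies, and how the counting split their reads is uncertain.

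The heat shock genes Hspa1a and Hspa1b, likewise near-identical copies, went from 35.7 to 96.03 CPM and from 47.1 to 119 CPM. In the other gated tumour cells their knockout levels were 2.11-fold and 1.77-fold those of the control. The immunoglobulin gene Igkc was at 18.9 CPM in control and 99.5 CPM in knockout Grem1 Inhba tumour cells. It was at 23.7 and 444 CPM in the other gated tumour cells and at 24.9 and 105 CPM in fibroblast-gated cells, so the step was present in each of these sets. Summed markers of B and plasma cells were 3.16 and 10.7 CPM, of T and NK cells 1.11 and 6.17 CPM, and of acinar cells 4.69 and 22.6 CPM in the control and knockout Grem1 Inhba tumour cells. All 7 acinar markers with enough UMIs were at least 2-fold higher in the knockout cells. Their part in the results was not tested. Ccl5 (3.99 and 23.7 CPM) was set apart because 5 knockout cells held 76.6% of its UMIs, and Mgp (12.4 and 30.7 CPM) because 5 held 94.4%.

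The 10 genes furthest lower in the knockout cells included collagen and fibrillin genes. Crabp2, which encodes a retinoic acid carrier, was at 36.9 CPM in the control [34.3 to 39.5] and 0.613 CPM in the knockout Grem1 Inhba tumour cells [0.343 to 1.01], 0.0166-fold. It was also lower in the knockout library in the other gated tumour cells, at 2.68 and 0.112 CPM, and in fibroblast-gated cells, at 39.7 and 0.87 CPM. Col3a1, a fibrillar collagen gene, was at 127 and 17.1 CPM, against 76.2 and 32.7 CPM in the other gated tumour cells. Col8a1 was at 55.6 and 9.72 CPM, against 13.6 and 14.3 CPM, and Pla2g7, which encodes a platelet-activating factor hydrolase, at 85.2 and 12.0 CPM, against 20.8 and 17.0 CPM. Serpinf1 (49.0 and 5.55 CPM), the zinc finger gene Bnc2 (42.6 and 5.31 CPM), Pdzrn3 (20.6 and 3.02 CPM), Syt8 (21.3 and 3.39 CPM), the fibrillin gene Fbn1 (22.2 and 3.55 CPM) and the protocadherin gene Pcdh19 (28.2 and 5.02 CPM) completed the 10 furthest lower. In cells with no UMI of the fibroblast genes Dcn, Lum, Dpt, Pi16 and Pdgfrb or the mesothelial genes Upk3b, Lrrn4 and Wt1, the log2 ratios were smaller but still negative, at -2.21 for Col3a1, -1.93 for Bnc2 and -1.78 for Col8a1.

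Most UMIs of these genes came from a minority of cells, in the Grem1 Inhba and the other gated tumour cells of both libraries. Summed, the 10 were at 488 CPM in control and 65.3 CPM in knockout Grem1 Inhba tumour cells, and at 163 and 91.0 CPM in the other gated tumour cells. At least 10 of their UMIs were found in 163 control cells (15.8%) [13.6 to 18.1] and 19 knockout cells (1.60%) [0.964 to 2.48]. At least 1 of their UMIs was in 67.2% of control and 44.7% of knockout Grem1 Inhba tumour cells. The richest 10% of these cells held 77.7% of the UMIs in the control and 62.1% in the knockout library. In the other gated tumour cells the richest 10% held 75.4% and 67.7%.

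A closer view was taken of the 94 control cells with a Crabp2 UMI, a subset chosen after its values were seen. They were deeper than the other 940, at a median of 22878 against 17704 UMIs. No doublet was called among them and 6 among the other 940. With so few calls, this cannot tell whether mixed droplets were among the 94. Serpinf1 was at 302 against 13.0 CPM, Col3a1 at 594 against 60.4 CPM, and Pla2g7 at 405 against 39.9 CPM in the cells with and without Crabp2. Grem1 was at 394 against 182 CPM and Hmga2 at 1232 against 805 CPM, while Igfbp3 was at 218 against 418 CPM. The 4 genes of the tumour gate, which all these cells had to pass, differed in direction: Krt8 was at 1429 against 1362 CPM and Cdkn2a at 867 against 478 CPM, while Krt18 was at 1112 against 1330.2 CPM and Krt19 at 753 against 1468 CPM. Cdh1 was at 63.9 against 152 CPM and the surface glycoprotein gene Cd24a at 64.3 against 285 CPM. Dcn, which encodes decorin, was at 88.2 against 16.9 CPM, where control fibroblast-gated cells had 8050.5 CPM. Col1a1 was at 122 against 14.3 CPM, where they had 9538 CPM. Col1a2 (64.3 against 15.5 CPM), Dpt (17.95 against 5.99 CPM) and Pdgfrb (8.97 against 1.43 CPM) were higher too. Lum was at 1.87 against 2.07 CPM and Pi16 had no UMI in the cells with Crabp2. Fibroblast-gated cells had 15007.5 CPM of Col3a1 and 749 CPM of Serpinf1. Bnc2 was at 180 CPM in the cells with Crabp2 and 191 CPM in fibroblast-gated cells, and Col8a1 at 258 and 179 CPM. The part of mixed droplets in these values was not tested. Of the cells with Crabp2, 41.5% had no UMI of those 8 fibroblast and mesothelial genes, against 79.6% of those without.

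Of 15 TGF-beta and activin target genes none was higher and 6 were lower in knockout Grem1 Inhba tumour cells, with a median log2 ratio of -0.57 relative to all genes, and -0.69 in the other gated tumour cells. Over all genes, 5.35% were lower and 1.60% higher. Of 12 ligand genes of the TGF-beta family 7 were lower and none higher, with medians of -0.88 in the Grem1 Inhba and -0.42 in the other gated tumour cells. Of 24 Wnt genes 8 were lower and none higher, with about the same median in both sets (-0.32 and -0.34). Of 17 plasminogen and protease genes 6 were lower and 1 higher, with medians of -0.70 and -0.41. Of 16 hypoxia and glycolysis genes 1 was higher and none lower. Of 16 genes of the mesenchymal list, 5 were lower. Thbs1, at 105 CPM in control and 30.3 CPM in knockout Grem1 Inhba tumour cells, and Igfbp4, at 961 and 477 CPM, were among the lower ones.

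Markers of other cell types were low in the Grem1 Inhba tumour cells. All 12 fibroblast markers were detected, summing to 262 CPM in control and 84.9 CPM in knockout cells, against 431 and 188 CPM in the other gated tumour cells and 51430 and 43034 CPM in fibroblast-gated cells. The mesothelial list summed to 221 and 142 CPM, of which Msln, also a gene of pancreatic cancer cells, gave 197 and 122 CPM, and 6 of its 8 genes were lower than in the other gated tumour cells. The endothelial list summed to 209 and 183 CPM, of which Flt1, the receptor of placental growth factor, gave 206 and 181 CPM. Macrophage markers summed to 13.8 and 14.6 CPM. The tumour and ductal list was at 4939.6 and 4668 CPM, against 5729 and 6339.9 CPM, a sum carried by the gate genes, and its members Epcam and Krt7 were at or near 0. Of its 6 genes outside the gate, 5 were at least 2-fold lower than in the other gated tumour cells in both libraries. Of the cells, 6 control and 11 knockout ones were called doublets. The libraries shared 46 barcode sequences among all cells, and none among the Grem1 Inhba tumour cells.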

How the data were processed

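The deposited matrices hold raw UMI counts per gene and barcode, 1 pooled library per genotype and 32285 genes each, made by the authors with Cell Ranger; the version is 8.0.0 per the file headers and 3.1.3 per the submitters' processing notes, which name the build mm10. A barcode was kept if it had 500 or more genes and no more than 15% of its UMIs from mitochondrial genes, which left 11664 of 13766 control and 10808 of 12251 knockout barcodes. Kept cells had median depths of 12235 and 10321 UMIs, from 171485719 and 135857506 UMIs in all. Doublets were called with Scrublet through scanpy 1.11.5 (148 control, 341 knockout) and kept, with an alternative without them.

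Cells were chosen with the thresholds in the report. UMIs were summed over a set and divided by its total to give CPM. Log2 ratios used 1 added UMI, for genes with at least 20 UMIs in each comparison and outside the rule and gates, and 2-fold was the threshold; medians, folds and exact Poisson, Clopper-Pearson and conditional intervals (95%) were computed with scipy 1.17.1 and numpy 2.4.6 and tested on simulated data. The fibroblast gate was Pdgfra with at least 10 collagen UMIs (Col1a1, Col1a2, Col3a1), the T cell gate at least 2 UMIs of Cd3 genes, both with fewer than 10 UMIs of the tumour gate genes, and the fibroblast gate also without Ptprc. Csf1r-positive leukocytes had a UMI of Csf1r and of Ptprc and also fewer than 10 such UMIs. Thinning drew 10000 UMIs per cell with seed 0. Clustering was by Leiden (leidenalg 0.10.2) at resolution 1 with 2000 genes, 30 components and 15 neighbours.

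Named genes were the 15 highest by the smaller log2 ratio of both libraries, among genes with at least 20 CPM in the chosen cells of both. The 10 lowest were taken by the larger log2 ratio, among genes with at least 20 CPM in the other gated tumour cells of both. Between genotypes the 10 highest and 10 lowest were named, among genes with at least 20 CPM in the chosen cells of either library. Genes of which 5 cells held over 50% of UMIs were left out there. List genes could be named too. Some genes that the rule names are not reported here. The members, markers and lists were chosen with earlier results of these data known. Of 32285 gene identifiers 32235 were in GENCODE M21, 31502 with the same symbol. Alternatives were rule minimums of 3 and 10, a tumour gate of 20, stricter cell filters, a depth window, thinning, per-cell means, a pseudocount of 1 CPM, at least 100 UMIs or no filter, centring, and leaving out doublets or cells with stromal UMIs; leaving out cells with an Epcam UMI was chosen after seeing the data.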

Additional observations from a re-analysis of the deposited data

Results flagged for a closer look

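For 6 of the genes named between genotypes, the Grem1 Inhba tumour cells lay on opposite sides of the other gated tumour cells in the libraries, with both counting intervals away from a ratio of 1. Pdzrn3, Syt8 and 1500015L24Rik also had opposite signs, but with an interval that held 1 in at least 1 library, and Ccl5 and Mgp, left out here, rested on few cells. All these genes had been picked for their ratio between genotypes in the Grem1 Inhba tumour cells, a choice that by itself favours opposite signs. With 1 library per genotype the difference in sign was not tested. The log2 ratio of Grem1 Inhba tumour cells over other gated tumour cells was 2.03 in the control and -0.50 in the knockout library for Pla2g7. It was 2.03 and -0.55 for the collagen gene Col8a1, and 1.54 and -0.95 for the fibrillin gene Fbn1. For the protocadherin gene Pcdh19 it was 1.27 and -0.82, and for the collagen gene Col3a1 0.73 and -0.93. Hspa1a went the other way, at -0.21 and 0.14.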

How the results depend on the processing

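The knockout over control ratio of the share was 1.61 with a rule minimum of 3 UMIs (28.8% and 46.3%), 1.55 in cells of 10000 to 40000 UMIs (28.4% and 43.9%) and 1.55 after thinning, against 1.75; under the other 6 alternatives run for it, it was between 1.67 and 1.85. Genes past 2-fold numbered 373 higher and 811 lower against other gated tumour cells, and 217 higher and 727 lower between genotypes. With a pseudocount of 1 CPM these counts were 240, 370, 61 and 314, with at least 100 UMIs 244, 425, 55 and 309, and with no filter 816, 1263, 1161 and 2737. Between genotypes, 129 genes were higher after thinning and 327 after centring. The genes called also changed. After thinning, 28.6% of the 217 higher and 43.7% of the 727 lower genes were called again, and without cells with stromal UMIs 58.5% and 56.8% were. Against other gated tumour cells, thinning called again 72.1% of the 373 higher and 60.5% of the 811 lower genes. The causes of these moves were not tested beyond the change in genes that can pass. The number of lists above the median of all genes in both libraries was 19, and 18 to 21 under the alternatives. Among values of named genes, 936 of 980 stayed within 1.5-fold and 44 moved, and among list medians 1166 of 1176 stayed; no called value reversed.

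No paired analysis was possible because each genotype has 1 library, which also leaves no replicate to leave out. Depth limits the share, since a shallow cell can miss the rule, and limits genes of few UMIs. Free RNA, pooling of mice and gating on transcripts limit what a level says of a cell.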

Other observations

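Counting the rule genes in tumour cells that the gates set aside gave similar shares in both libraries. A sum of at least 5 UMIs was reached by 33.3% of control and 31.0% of knockout dividing tumour cells, by 5.31% and 6.02% of cells with intestinal genes, and by 7.61% and 8.25% of cells with gastric mucin genes. The dividing cells were also deeper, at medians of 30441 and 28943 UMIs.

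Klra4, of a receptor family known from natural killer cells, was at 120 CPM in control and 112 CPM in knockout Grem1 Inhba tumour cells and at 20.3 and 29.6 CPM in the other gated tumour cells. Its Pearson correlation with the rule sum in thinned cells was 0.46 in the control and 0.42 in the knockout library; it was singled out after its values were seen. Hilpda, a lipid droplet gene induced by hypoxia, was at 393 and 321 CPM against 78.6 and 65.4 CPM.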
